A study of Mus musculus with 4 samples.

Results

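Mouse mesenchymal stem cells were set against tissue made from the same cells, gene by gene, on 1 microarray each. The labels call this tissue ligament-like. Of 18 compared tendon and ligament markers, 1 (5.6%) was higher than in stem cells and 3 (16.7%) were lower from 2-fold. Over all compared genes the shares were 11.1% and 13.1%. The median log2 difference of these markers was -0.65, but -0.35 without the 4 that were not well above background on one of the arrays. The tissue minus stem cell difference was taken for every gene whose probe the scanner software marked as well above background on either array or both: 17772 genes, of 19794 that were so marked somewhere among the 4 arrays of the series. The stem cells came from embryos of mice with the C3H background and had been obtained from the RIKEN cell bank. To make the tissue, the cells had been transfected with the pCAGGS plasmid, a vector with a strong ubiquitous promoter, that carried a mouse gene named only "A" in the labels. Because the labels do not say which gene this is, its own signal could not be checked. Plasmid, transfection, culture and tissue formation differ together between the arrays, and there was no array of cells given an empty plasmid or of tissue formed without A, so none of these can be told apart. The other arrays held ligament of wild type and of A-transgenic C57BL/6J mice, and they serve here only as levels beside the compared pair. No sample was repeated, so every difference below describes 2 arrays, carries no p-value, and leaves out the spread between cultures, which these arrays cannot give.

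Mesenchymal stem cells are spindle-shaped precursors that divide on plastic and can form bone, cartilage, fat, tendon and ligament. A cell that leaves the cycle stops making the enzymes of DNA synthesis and the machinery of mitosis, many of which are held silent at rest by the DREAM complex and switched on by E2F factors. Detoxification is run by enzymes that oxidise a foreign or reactive compound, enzymes that couple it to glutathione, and pumps that export it. The transcription factor NRF2 raises many of these genes together. Interferons act through another set of factors, which bind the interferon-stimulated response element in the promoters of antiviral genes.

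Signal is given as log2 of the background-subtracted spot signal minus the 75th percentile of its array, called the normalised signal here, and each pair of levels is in the order stem cells, then tissue. The 75th percentile was 1169 in stem cells and 2260 in the tissue, and 56.3% and 55.9% of the spots were well above background. Over 240 probes printed as 10 spots, the SD of log2 signal within an array was 0.185 in stem cells and 0.0655 in the tissue, which gives an SD of 0.196 for a difference between single spots. Different probes for the same gene spread more widely, with an SD of 0.570 over 3829 genes. Where a gene was not well above background on one side, the fold is a bound, written as at least N-fold, against the lowest signal of that array that was well above background or the probe's own signal, whichever was higher. Of 15 stromal markers, 13 were well above background in stem cells and 14 in the tissue, and Nt5e, the ecto-nucleotidase CD73, was marked on neither array. Of 18 skeletal muscle markers, 7 were so marked in stem cells and 2 in the tissue, and Myod1, the muscle-determining factor, on neither. Of 14 melanocyte genes, 4 and 6 were marked, and the pigment enzyme Dct and the neural crest factor Sox10 were on neither array.

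Most genes differed little between the tissue and its parent cells. A value could be given for 17756 genes, 15691 of them measured on both arrays and 2065 of them bounds. From 2-fold, 1973 genes (11.1%) were higher in the tissue and 2318 (13.1%) were lower, and 13465 lay within. The median log2 difference of all genes was -0.07, with quartiles of -0.60 and 0.47; centring each array on its own 75th percentile largely sets this median. From 8-fold, 136 genes were higher and 210 lower. Higher genes made up 46.0% of those past 2-fold, but 33.7% after normexp background correction, which also moved the median of all genes to -0.18, so counts of higher genes depend on how dim spots are corrected. Folds depend on it too: under that correction 30 of 174 measured genes named here and past 2-fold, and 19 of 20 given as bounds, had folds smaller by over 1.5 times. The Pearson correlation across the 15691 genes was 0.951, a description over genes that are not independent.

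**Figure D1:**
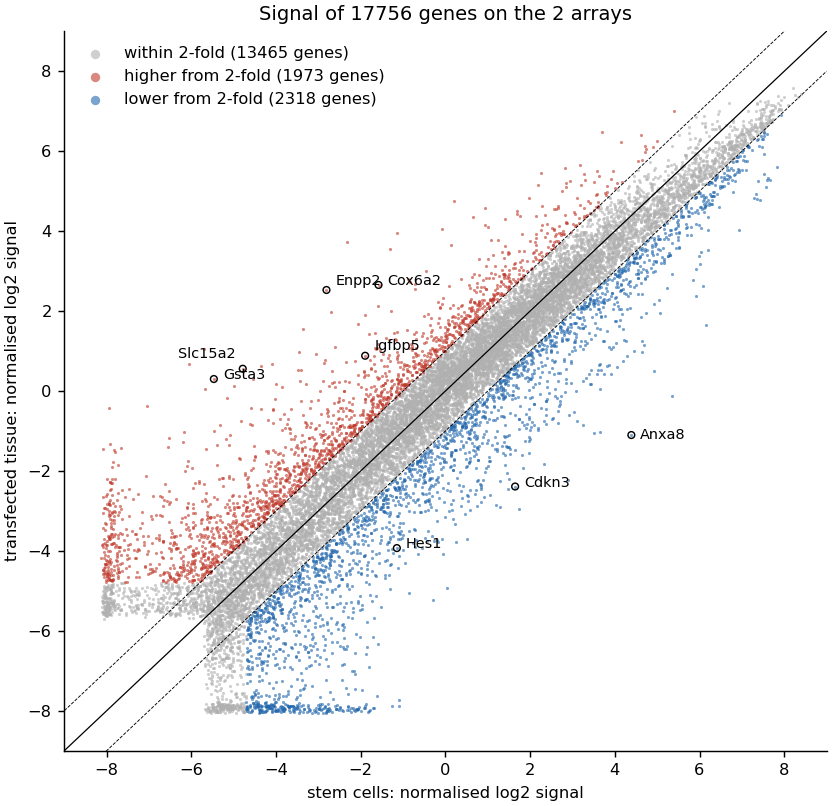
Normalised log2 signal of 17756 genes in stem cells (x axis) and in the transfected tissue (y axis), with red for the 1973 genes at least 2-fold higher, blue for the 2318 at least 2-fold lower and grey for the rest; the solid line is equality and the dashed lines are 2-fold. Most genes follow the line, Gsta3, Slc15a2 and Enpp2 stand far above it and Anxa8 far below it, and the bands at the left and lower edges are genes not well above background on one array.

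Enzymes, carriers and matrix proteins were among the 15 genes with the largest measured differences upward. Gsta3, a glutathione transferase, went from -5.47 to 0.30 (54.5-fold higher), and the same gene was at 2.40 in wild type ligament. Slc15a2, a proton-coupled peptide transporter, was at -4.79 and 0.56, which is 40.6-fold higher. Enpp2, or autotaxin, the secreted enzyme that makes lysophosphatidic acid, had levels of -2.81 and 2.53 (40.4-fold higher). Inmt, an amine methyltransferase, was 31.7-fold higher, from -5.15 to -0.17, and Lama2, a laminin chain, 18.1-fold, from -4.60 to -0.41. The stem cell levels of Gsta3, Slc15a2, Inmt and Lama2 were dim, beside a lowest well-above-background signal of -5.79 on that array. Under the alternatives their log2 differences came down to 4.06, 3.97, 3.47 and 2.95. Itih4, a protein otherwise known from plasma, was at 0.67 in the tissue and at least 88.3-fold higher there, since its stem cell spot was not well above background. Neither ligament array showed Itih4 well above background, and the same held for Ces1a, Epyc and Cib3, all among the 15 highest measured genes.

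The lower end held an annexin and a cytokine receptor beside cell cycle genes. Anxa8, a calcium-dependent membrane-binding protein, was at 4.39 in stem cells and -1.10 in the tissue, 45.0-fold lower. Il1rl1, the receptor for interleukin-33, was at 0.04 and -4.94 (31.5-fold lower). The tissue signal of Il1rl1 lay close to background, while Anxa8 was clearly measured on both sides. Col28a1, a collagen of the nervous system, was 30.7-fold lower (-0.29 and -5.24), Evx2, a homeobox gene beside the Hoxd cluster, 23.5-fold lower (3.50 and -1.05; the difference is -2.44 with the mean of all its probes), and Car9, the carbonic anhydrase of hypoxic cells, 18.5-fold lower (0.51 and -3.70). The largest bounds among the lower genes were at least 24.4-fold for Megf6 (a difference of -4.61, or -1.62 with the mean of all its probes) and at least 24.3-fold for the sodium channel gene Scn3a.

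Most genes of DNA replication were lower in the tissue. Of 18 compared genes of origin licensing and the helicase, 15 were at least 2-fold lower and none higher, with a median of -2.19, beside 13.1% of all genes lower and a median of -0.07. Orc1, which marks origins, was at -2.06 and -5.31 (9.54-fold lower). Cdt1, which loads the helicase, was at 2.97 and 0.75 (4.66-fold lower). Mcm5, a helicase subunit, was at 3.44 and 0.53 (7.51-fold lower). Loading and opening of origins thus moved in the same direction, and 22 of 24 genes of the polymerases and the fork were lower too, with a median of -1.65. Clspn, a checkpoint adaptor at the fork, was 10.4-fold lower (-1.98 and -5.36), whereas Pcna, the sliding clamp, was 2.74-fold lower (5.01 and 3.56).

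Repair by recombination and the supply of nucleotides followed. In the homologous recombination and Fanconi list 19 of 22 genes were lower and 0 higher (median -2.03). Fanca was at 0.51 and -2.60 (8.67-fold lower). In nucleotide synthesis, 11 of 23 genes were lower and 0 higher (median -0.96). Rrm2, the regulated subunit of ribonucleotide reductase, was at 4.06 and 0.61 (10.9-fold lower). Tk1, thymidine kinase, was at 4.27 and 1.24 (8.14-fold lower), and Dut, which removes dUTP, at 2.71 and -0.26 (7.80-fold lower).

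Most genes of the kinetochore and most mitotic kinases were lower too. The kinetochore and centromere list had 33 of 43 genes lower and none higher, with a median of -2.32, and mitotic kinases and phosphatases had 18 of 23 lower and none higher, with a median of -2.74. Spc24, a subunit of the NDC80 complex that grips microtubules, was at 1.19 and -2.85 (16.4-fold lower). Cenpa, the histone H3 variant of centromeres, was at 2.93 and -0.60 (11.5-fold lower). Plk1, the kinase that drives many mitotic steps, was at 3.82 and 0.61 (9.24-fold lower). All 3 stayed well above background in the tissue, where the lowest signal so marked was -5.71. These messages were thus lower than in stem cells but still clearly measured in the tissue.

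Kinesins differed in both directions. Of 32 kinesin genes, 12 were lower and 5 higher. Lower members included Kif2c, which shortens microtubules at kinetochores (-0.08 and -3.69, 12.2-fold lower), and Kif22, which pushes chromosome arms outward (3.09 and 0.00, 8.53-fold lower). Among the higher members, Kif3c was 2.57-fold higher (-1.28 and 0.08) and Kif1b 2.36-fold higher (0.76 and 2.00), although another probe of Kif1b gave 0.26. Among 19 condensin, cohesin and topoisomerase genes, 12 were lower and none higher, and Top2a, which untangles replicated DNA, was at 2.53 and -0.68 (9.27-fold lower).

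**Figure D2:**
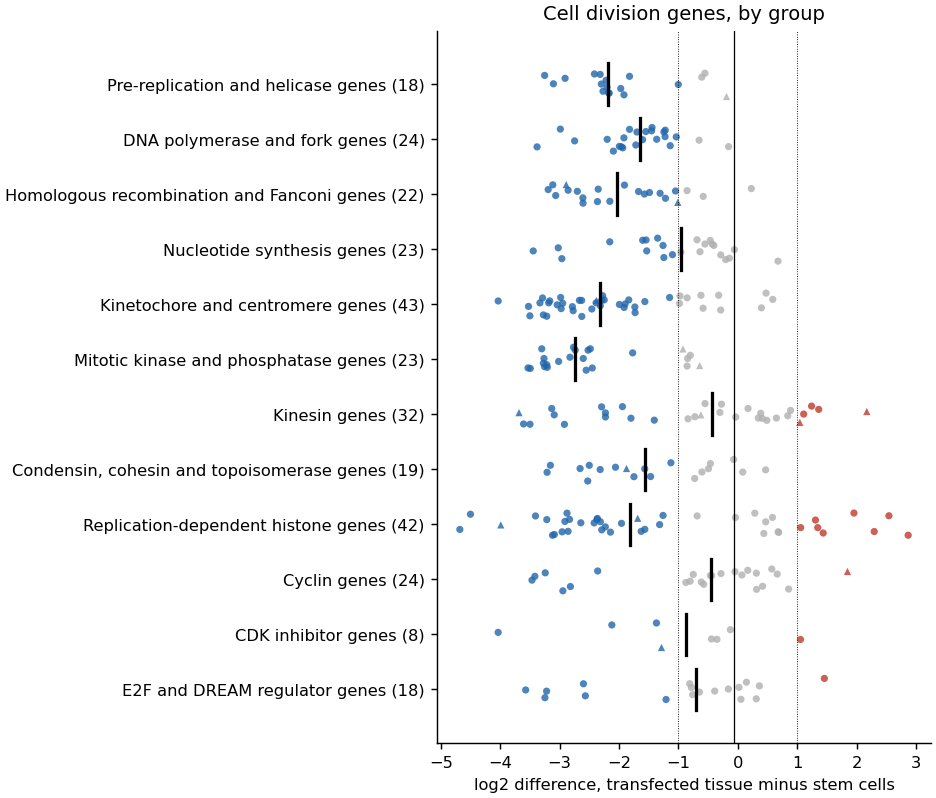
Log2 difference, tissue minus stem cells, of each compared member of 12 cell division lists (number compared in brackets), with circles for genes measured on both arrays and triangles for bounds, red at least 2-fold higher and blue at least 2-fold lower. Thick bars are list medians, the thin solid line is the median of all genes (-0.07) and dotted lines are 2-fold; the replication and mitosis lists lie almost wholly to the left, while histones, kinesins, cyclins, cell cycle inhibitors and E2F and DREAM regulators have members on both sides.

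Replication-dependent histones, the bulk histones made in S phase, were lower in 26 of 42 compared genes, but 8 were higher (median -1.82). H1f5, a linker histone, was at 3.65 and -1.03 (25.7-fold lower), and H2ac4 at 6.15 and 1.65 (22.7-fold lower). In the opposite direction, H2bc6 was at -2.75 and 0.12 (7.30-fold higher), H3c15 at 0.08 and 2.62 (5.83-fold higher) and H1f2 at 2.69 and 4.13 (2.71-fold higher). The histone genes therefore did not move as a block. Their coding sequences are much alike, and signal may be shared between copies, so single values are uncertain. On chromosome 13, 8 neighbouring genes from H4c11 to H4c17 were all lower, by differences from -1.96 (H4c17) to -4.68 (H1f5).

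The regulators of the cycle were divided as well. Among 8 inhibitors of cyclin-dependent kinases, 4 were lower, and Cdkn1b, or p27, which holds cells at rest, was the member past 2-fold upward. It was at 2.23 and 3.29, a difference of 1.05, while another of its probes gave -0.20. Cdkn3, a phosphatase that peaks in dividing cells, was at 1.65 and -2.39 (16.4-fold lower). Of 18 E2F and DREAM genes, 6 were lower and 1 higher. The repressor E2f8 was at 0.38 and -2.87 and the mitotic activator Foxm1 at 1.50 and -1.10, whereas Rbl2, the p130 protein of the DREAM complex, was at -2.62 and -1.16 (2.74-fold higher). Gadd45a, a stress-induced inhibitor of growth, stood out among 24 compared p53 targets: it was at -1.89 and 1.90, 13.9-fold higher, while 3 of these targets were higher and 5 lower in all.

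Promoters of the lower genes were read for the motifs that DREAM uses and for E2F sites. The CHR was searched as TTTGAA and the CCAAT box as CCAAT, each on both strands, in the 250 bases before the start of genes in the RefSeq promoter table (GRCm38.p6), which matched 11254 of the 17756 compared genes. Of 140 matched genes at least 8-fold lower, 82 (58.6%) held CCAAT and 32 (22.9%) TTTGAA, against 40.8% and 13.5% of matched compared genes. Among the matched genes lower from 2-fold the shares were nearer to these, at 42.7% and 16.3%. Over all promoters of the table the shares were 37.5% and 18.3%. In the kinetochore list 20 of 38 promoters held CCAAT and 5 held TTTGAA. Promoters of Cenpw and Cenpn, centromere proteins that were 6.18-fold (2.37 and -0.26) and 3.98-fold (-0.56 and -2.55) lower, are shown because both motifs occur close together in them; capitals mark the matches. A match is a description of letters, and binding was not measured. In Cenpw, minus strand at chr10:30200541-30200690, the 2 motifs overlap, and in Cenpn, plus strand at chr8:116921590-116921739, a short gap parts them.
Cenpw: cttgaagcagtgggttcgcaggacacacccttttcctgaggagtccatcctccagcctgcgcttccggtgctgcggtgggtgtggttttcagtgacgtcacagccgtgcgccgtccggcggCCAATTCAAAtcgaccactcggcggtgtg
Cenpn: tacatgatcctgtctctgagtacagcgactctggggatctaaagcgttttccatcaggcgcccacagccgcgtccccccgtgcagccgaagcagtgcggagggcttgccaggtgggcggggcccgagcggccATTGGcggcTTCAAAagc

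Glutathione transferases were higher in the tissue more often than genes in general. Of 23 compared glutathione transferases, 10 were higher and 1 lower (median 0.54), beside 11.1% of all genes higher. In the alpha class, Gsta1 was at -3.37 and 1.55 (30.2-fold higher), Gsta2 at -4.10 and 0.68 (27.5-fold higher) and Gsta4 at 1.39 and 3.33 (3.83-fold higher), besides Gsta3. Probes of Gsta1 and Gsta2 are identical at 46 of 60 bases, so these may read each other's message, while no other pair of alpha class probes reached more than 22. In the mu class, Gstm1 was at 3.27 and 5.43 (4.47-fold higher) and Gstm3 at 1.92 and 3.26 (2.54-fold higher).

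Of 33 glutathione and thioredoxin enzymes, 4 were higher and 2 lower, and the median of -0.03 changed sign under other scalings. Both subunits of the enzyme that starts glutathione synthesis were higher. Gclm, the modifier subunit of glutamate-cysteine ligase, was at -2.28 and 0.23 (5.69-fold higher), and Gclc, the catalytic subunit, at 0.80 and 2.04 (2.36-fold higher). Slc7a11, the carrier that brings in cystine for glutathione, was at -2.94 in the tissue, and at least 7.23-fold higher against a stem cell spot not well above background. Hmox1, haem oxygenase, was at 2.85 and 5.11 (4.78-fold higher). In all, 13 of 27 NRF2 targets were higher and 0 lower, and their median was 0.88. The list was not uniform: Nqo1, often used as its readout, was at 1.00 and 1.41, the thioredoxin reductase Txnrd1 at 3.16 and 3.89 and the sulfiredoxin Srxn1 at 2.77 and 3.65, all within 2-fold.

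In the same promoter table the antioxidant response element, searched as TGACNNNGC on both strands, occurred in 5 of 22 matched NRF2 targets (22.7%) and in 3 of 9 matched targets that were higher. Matched compared genes held it in 13.4% of cases and all promoters of the table in 11.5%, so the letters are common by themselves. The stretches of Gsta3 (plus strand, chr1:21240435-21240584) and Gclm (plus strand, chr3:122245407-122245556) are given as the member with the largest difference and the ligase subunit, with the match in capitals.
Gsta3: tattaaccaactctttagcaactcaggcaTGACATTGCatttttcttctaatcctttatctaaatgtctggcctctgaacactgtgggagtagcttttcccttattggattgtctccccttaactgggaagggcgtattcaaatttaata
Gclm: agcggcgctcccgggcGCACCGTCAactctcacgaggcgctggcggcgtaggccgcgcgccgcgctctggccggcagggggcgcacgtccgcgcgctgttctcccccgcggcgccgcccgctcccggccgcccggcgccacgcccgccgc

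Carboxylesterases, which cleave esters of drugs and lipids, parted by subfamily. Ces1a was at -4.54 and 0.30 (28.7-fold higher), Ces1f at -5.47 and -0.99 (22.2-fold higher) and Ces1d at -3.86 and 0.09 (15.5-fold higher). Ces2g was lower, at -0.87 and -3.01 (4.41-fold), and Ces2c and Ces2e, not well above background in the tissue, were at least 10.6-fold and at least 2.29-fold lower. The 3 lower genes were thus all Ces2 and the 3 higher all Ces1, among 7 compared members. Probes of the Ces1 genes shared at most 21 of 60 bases.

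Cytochrome P450 genes showed no shared direction: 6 of 37 were higher and 4 lower, and the median of -0.02 changed sign under other scalings. Cyp2f2, an enzyme of lung and liver, was nevertheless at 0.21 and 4.75 (23.3-fold higher), and Cyp2c23, an arachidonic acid epoxygenase, at -4.18 and -1.54 (6.22-fold higher). Aldh1a1, which makes retinoic acid, was at -2.97 and -0.01 (7.78-fold higher). Akr1b7, an aldo-keto reductase known from the adrenal and from fat depots, was at -1.02 in the tissue and at least 27.4-fold higher. Of their families, 4 of 16 aldehyde dehydrogenases and 4 of 15 aldo-keto and carbonyl reductases were higher, against 1 and none lower.

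ABC transporters were higher more often than genes in general. Of 36 compared ABC transporters, 10 were higher and 1 lower (median 0.46). Abcc4, which exports conjugates and prostaglandins, was at -0.90 and 1.52 (5.36-fold higher), while Abcc3 was at -1.73 and -3.13 (2.64-fold lower). Abca1, which loads cholesterol onto apolipoprotein, was at -2.88 and -1.09 (3.47-fold higher), and Abcg2, the marker of side population cells, at 3.16 and 4.32 (2.24-fold higher). Slc6a9, the glycine transporter, was at 2.85 and 5.21 (5.14-fold higher), in a list of 38 amino acid and peptide carriers with 10 higher and 4 lower. Its median of 0.07 was near that of all genes and changed sign under normexp correction, so no shared direction of the carriers can be read from it.

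Of 23 glucose and monocarboxylate carriers 4 were higher and 5 lower, and the median of 0.08 changed sign under normexp correction. Single carriers of lactate and iron are given here. Slc16a1, the monocarboxylate carrier MCT1, was at -2.74 and -4.44 (3.25-fold lower), and Slc16a3, the lactate exporter MCT4, at -2.26 and -4.48 (4.66-fold lower). These lactate carriers were thus both lower, in a list without a shared direction. Slc40a1, or ferroportin, the cell's iron exporter, was at -2.63 and 0.23 (7.26-fold higher), and Cp, the ferroxidase ceruloplasmin that works with it, at 0.69 and 1.98 (2.45-fold higher). Among 17 iron genes 6 were higher and 2 lower, and Tfrc, the transferrin receptor, lay within 2-fold at -0.99. Slc25a29, a mitochondrial carrier of basic amino acids, was at -2.40 and 0.00 (5.29-fold higher). In its list of 39 mitochondrial carriers 9 were higher and 0 lower, and the median of 0.11 changed sign under normexp correction.

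Lysosomal genes were moderately higher. Of 40 compared members 12 were higher and 0 lower, the median was 0.61, and no difference exceeded 1.88. Tpp1, a peptidase, was at -0.18 and 1.70 (3.67-fold higher), Psap, the precursor of the sphingolipid activators, at 3.63 and 5.37 (3.35-fold higher), and Neu1, the sialidase, at 1.39 and 2.92 (2.88-fold higher). The membrane protein Lamp2 was at 3.55 and 4.61. The regulator Tfeb had a difference of -0.03 and Lamp1 one of 0.16, so not all members followed. In the autophagy list 3 of 24 genes were higher (12.5%), near the 11.1% of all genes, and none lower.

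**Figure D3:**
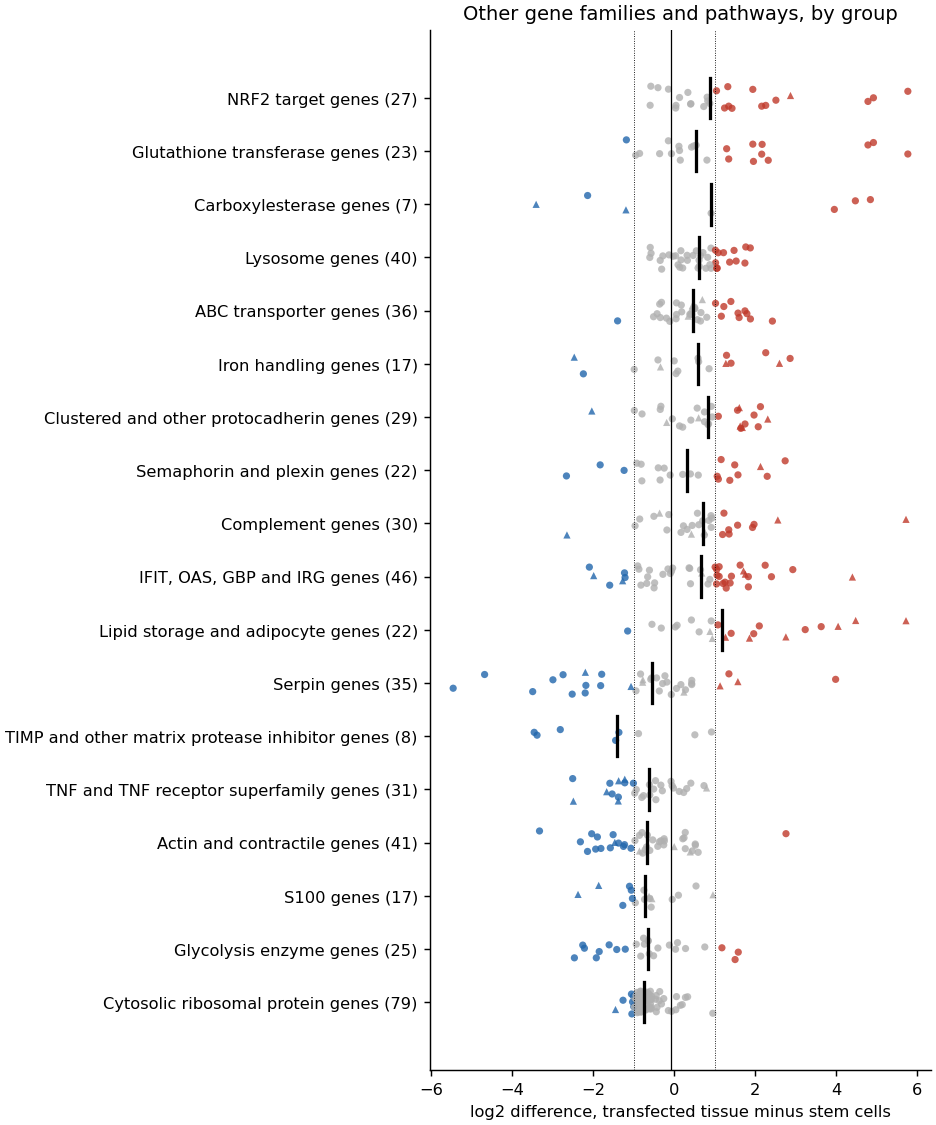
Log2 difference, tissue minus stem cells, of each compared member of 18 families and pathways (number compared in brackets), with circles for measured genes, triangles for bounds, red at least 2-fold higher and blue at least 2-fold lower; thick bars are list medians, the thin solid line the median of all genes (-0.07), dotted lines 2-fold. Medians lie to the right for 11 families from NRF2 targets to lipid storage and to the left for the 7 from serpins to cytosolic ribosomal proteins, where most ribosomal protein genes stay within 2-fold and their median of -0.76 is -0.09 after quantile normalization and -0.10 in the deposited values.

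Ion channel and gap junction genes differed in both directions, and by list more of their compared members were past 2-fold than of all genes. Of 30 potassium channel genes 9 were higher and 4 lower (13.3%), and of 22 calcium and sodium channel genes 3 were higher (13.6%) and 7 lower (31.8%), beside 11.1% and 13.1% of all genes. Kcnma1, the large-conductance calcium-activated channel, was at -5.11 and -1.36 (13.5-fold higher), and Kcnn4, the intermediate-conductance channel linked to proliferation, at -1.83 and -4.28 (5.46-fold lower). Among 10 connexins and pannexins 4 were lower and 1 higher: Gja1, connexin 43, was the higher one, at -2.86 and -1.48 (2.61-fold higher). The potassium channel median of 0.29 changed sign under normexp correction.

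In the insulin-like growth factor axis several binding proteins were past 2-fold. Igfbp5, a binding protein, was at -1.90 and 0.88 (6.86-fold higher), and Igfbp4 at -2.51 and -0.16 (5.08-fold higher). Pappa, the protease that cleaves these binding proteins and frees the ligand, was at -2.60 and 0.11 (6.54-fold higher). Binding protein and protease were thus higher side by side. Igf1 had a difference of 0.44 and the receptor gene Igf1r one of -0.13. Igfbp7 was lower, at -2.28 and -3.62 (2.53-fold). Of 17 compared genes, 5 were higher and 2 lower, and the median of 0.01 changed sign between scalings.

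Other pathways showed single large members within lists that as a whole lay near the median of all genes. Fgf10, a growth factor of limb and fat development, was at -1.53 and 1.03 (5.92-fold higher), and it was not well above background in either ligament. In Notch signalling the target genes Hes1 (-1.15 and -3.93, 6.88-fold lower) and Hey1 (-0.32 and -2.62, 4.91-fold lower) were lower, with 3 of 14 compared genes lower and 1 higher. Gli1, the direct target of Hedgehog signalling, was at -1.80 in stem cells and at least 15.02-fold lower. The Wnt co-receptor Lrp5 was at 2.65 and -0.17 (7.05-fold lower). Among secreted Wnt antagonists and relatives, Dkk3 was at -3.54 and -1.39 (4.43-fold higher) and Sfrp4 at -3.12 and -1.63 (2.81-fold higher). In the BMP and activin family, 8 of 50 genes were lower and 2 higher; Inhba, the activin A subunit, was at -1.25 and -3.95 (6.47-fold lower), and Id4, a target and inhibitor of bHLH factors, at -2.51 and -4.85 (5.05-fold lower). The medians of the Notch, Hedgehog, Wnt and BMP lists all changed sign under at least 1 scaling.

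Some guidance and adhesion families held more higher than lower genes, and others did not. Of 22 semaphorins and plexins 9 were higher and 3 lower; their median was 0.30 and came to 0.06 under normexp correction and -0.05 with no filter. Of 17 ephrin and Eph receptor genes 1 was higher and 1 lower (median -0.27), and of 9 cadherins 2 and 2 (median -0.35). In the semaphorin list the ligand Sema3c was at 1.01 and 3.31 (4.91-fold higher), the receptor Plxnb3 at -4.25 and -1.51 (6.67-fold higher), and the receptor Plxna4 at -1.02 and -3.69 (6.34-fold lower). Of 29 protocadherins, the cadherin relatives that give neurons their surface identity, 11 were higher and 1 lower (median 0.83). Within the beta cluster on chromosome 18, 10 adjacent genes from Pcdhb4 to Pcdhb13 were all higher, the longest such stretch in the comparison. Pcdhb9 was at -2.98 and -0.85 (4.37-fold higher), and Pcdhb5 at -4.62 and -2.55 (4.21-fold higher). The differences ran from 1.09 for Pcdhb12 to 2.13 for Pcdhb9, and 3 of the 10 were bounds. No pair of these probes shared more than 29 of 60 bases, but the genes are close copies, and cross-reading between them was not tested.

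Contractile genes were lower more often than genes in general. Of 41 compared actin and contractile genes 14 were lower and 1 higher, with a median of -0.68, or -0.32 after quantile normalization and -0.31 in the deposited values. Acta2, smooth muscle actin, the mark of activated fibroblasts, was at 5.80 and 3.90 (3.73-fold lower), and Tagln2, a transgelin, at 6.03 and 4.08 (3.84-fold lower). Tnnt2, the cardiac form of troponin T, was at -0.43 and -3.76 (a difference of -3.33). The exception was Tnnt1, slow muscle troponin T, at -3.36 and -0.60 (6.77-fold higher). Among tubulins 7 of 22 were lower and 1 higher, with Tubb6 at 6.04 and 3.47 (5.91-fold lower), and among S100 genes 6 of 17 were lower and none higher (median -0.74). Itga11, a collagen-binding integrin subunit of fibroblasts, was at 2.37 and -0.82 (9.13-fold lower).

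The urokinase pair and several protease inhibitors were lower together. Plaur, the urokinase receptor, was at 1.87 and -1.25 (8.70-fold lower), and its ligand Plau at -2.20 and -4.44 (4.73-fold lower). Receptor and enzyme therefore went the same way. Among matrix protease inhibitors, 5 of 8 were lower and none higher (median -1.41): Timp1, which blocks metalloproteinases, was at 6.09 and 2.63 (a difference of -3.46), and Slpi, which blocks leukocyte elastase, at 4.65 and 1.26 (10.5-fold lower). Of 35 serpins 12 were lower and 4 higher (median -0.56). Serpinb5, or maspin, went against this, at -5.17 and -1.19 (15.8-fold higher).

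Metalloproteinases did not follow their inhibitors. Mmp14, the membrane-bound collagenase, was at 0.95 and 2.54 (a difference of 1.59), and Mmp11, or stromelysin-3, at 1.48 and 3.43 (3.86-fold higher). Of 13 compared metalloproteinase genes 5 were higher and 2 lower, but the median of 0.67 changed sign under normexp correction. Adamts17 was at -3.40 and -0.24 (8.96-fold higher), and Adam8, a sheddase of leukocytes and tumours, at 1.48 and -2.46 (15.3-fold lower). Has2, the main hyaluronan synthase of fibroblasts, was at 0.57 and -2.98 (11.7-fold lower). Its receptor Cd44 was at 1.39 and -0.65, 4.10-fold lower, and a second probe of Cd44 gave a larger difference, -3.44.

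Complement genes were more often higher than lower. Of 30 compared members, 9 were higher and 1 lower (median 0.72). The widest difference was that of Cfd, factor D of the alternative pathway and also a product of fat cells, which was at 0.05 in the tissue and at least 52.8-fold higher. The proteases C1s1 (2.61 and 4.54, 3.82-fold higher) and C1s2 (2.66 and 4.63, 3.92-fold higher) lie beside C1ra (2.86 and 4.20, 2.54-fold higher) and C1rb (-0.30 and 1.06, 2.55-fold higher) in an unbroken stretch of chromosome 6. C3, the common substrate, was at 3.95 and 5.51 (2.96-fold higher). C1qa, part of the recognition subunit and a product of macrophages, was at -3.06 in stem cells and at least 6.28-fold lower. Of the clotting genes, F13a1, the transglutaminase that crosslinks fibrin, was at -0.72 and 2.54 (9.64-fold higher), with 4 of 17 higher and 5 lower in that list.

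Antiviral genes split between families. Of 46 compared IFIT, OAS, GBP and IRG genes, 20 were higher and 6 lower (median 0.66). Ifit3, which helps to retain viral RNA, was at -0.34 and 1.49 (3.55-fold higher), and 6 IFIT neighbours on chromosome 19 were all higher, by differences from 1.04 (Ifit2) to 2.40 (Ifit1). Among guanylate-binding GTPases, Gbp11 was at -2.79 and -0.54 (4.74-fold higher) and Gbp6 at -1.39 in the tissue, at least 21.1-fold higher, although another probe of Gbp6 measured on both arrays gave a difference of 1.91. Irgm1, a GTPase of interferon-driven autophagy, was at 0.74 and 2.16 (2.66-fold higher). By contrast, the membrane barrier proteins Ifitm1 (-1.52 and -3.62, 4.28-fold lower), Ifitm6 (-1.42 and -3.02, 3.02-fold lower) and Ifitm3 (5.81 and 4.58, 2.35-fold lower) were lower. The difference of Ifitm3 was under 2-fold after quantile normalization (-0.75) and in the deposited values (-0.78). The Ifitm genes adjoin on chromosome 7, so both directions came as neighbouring blocks.

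The core letters of the interferon-stimulated response element, GAAANNGAA on either strand, occurred in 19 of 31 matched promoters of this list (61.3%). All promoters of the table held them in 8.18% of cases and matched compared genes in 7.59%. Within the list they occurred in 9 of the 14 matched members that were higher (64.3%), near the share of the whole list. They occurred in 1 of the 5 matched members that were lower, and the remaining matches lay in members within 2-fold. The letters therefore mark the list and do not set its higher members apart. Promoters of 4 higher members follow, chosen for their matches near the start of the gene, which stand in capitals: Ifit1 (plus strand, chr19:34640739-34640888), Ifit3 (plus strand, chr19:34583379-34583528), Ifit1bl1 (minus strand, chr19:34601969-34602118) and Irgm1 (minus strand, chr11:48871421-48871570). Ifit1 held 3 matches, of which the first 2 overlap, Ifit3 held 2, Irgm1 held 2 that overlap, and Ifit1bl1, which was at -4.04 in the tissue and at least 3.37-fold higher, held 1.
Ifit1: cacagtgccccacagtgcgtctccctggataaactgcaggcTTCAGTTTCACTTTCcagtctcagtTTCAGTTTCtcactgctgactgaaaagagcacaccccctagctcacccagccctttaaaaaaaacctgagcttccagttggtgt
Ifit3: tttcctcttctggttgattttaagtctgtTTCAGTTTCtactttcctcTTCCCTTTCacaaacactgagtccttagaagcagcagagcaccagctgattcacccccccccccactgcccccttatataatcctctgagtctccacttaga
Ifit1bl1: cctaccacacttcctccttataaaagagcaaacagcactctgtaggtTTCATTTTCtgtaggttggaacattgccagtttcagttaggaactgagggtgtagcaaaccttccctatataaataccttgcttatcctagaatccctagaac
Irgm1: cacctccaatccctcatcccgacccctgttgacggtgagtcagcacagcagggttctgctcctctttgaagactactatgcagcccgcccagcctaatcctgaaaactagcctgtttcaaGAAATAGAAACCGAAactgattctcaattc

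Of 23 compared Toll-like and nucleic acid sensor genes, 7 were lower and 1 higher, with a median of 0.05. Sting1, the adaptor of the cytosolic DNA pathway, was at 0.11 and -2.50 (6.10-fold lower), and Cgas, its upstream sensor, at 0.37 and -1.24 (3.07-fold lower). Aim2, a DNA sensor of the inflammasome, was at -2.41 in stem cells and at least 9.83-fold lower. The genes of class I molecules and antigen presentation were level as a list, with 4 of 36 higher, 5 lower and a median of 0.04. Within it the neighbours Psmb8 (0.15 and -1.19, 2.52-fold lower), Psmb9 (0.76 and -0.53, 2.45-fold lower) and Tap1 (-1.82 and -3.15, 2.50-fold lower), which cut and carry peptides for class I molecules, were lower on chromosome 17. With the mean of all its probes Psmb9 lay within 2-fold (-0.66).

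Among cytokine and receptor lists the TNF superfamilies leaned lower, while interleukin and chemokine genes went both ways. Of 31 members of the TNF and TNF receptor superfamilies 11 were lower and none higher (median -0.61); the costimulator Tnfsf9 was at -1.07 and -3.58 (5.69-fold lower). Of 53 interleukin and receptor genes 12 were lower (22.6%) and 7 higher (13.2%), and of 15 chemokines 4 (26.7%) and 3 (20%). Among all genes 13.1% were lower and 11.1% higher. Il1rn, the natural antagonist of interleukin-1, was at 1.64 and -1.47 (8.63-fold lower), and Il6 at -0.07 and -2.11 (4.11-fold lower). Lifr, the receptor of leukaemia inhibitory factor, was at 0.78 and 2.90 (4.33-fold higher), with its other probes reaching down to 0.23. Cxcl12, the chemokine of stromal niches, was at 6.21 and 4.03 (4.54-fold lower).

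Among transcription factors the differences were of single genes. Fosl1, a subunit of AP-1 in growing fibroblasts, was at 0.24 and -3.79 (16.4-fold lower), while Atf3, induced by stress, was at -3.20 and -0.43 (6.85-fold higher). Runx1, a factor of blood and of mesenchymal precursors, was at 0.81 and -2.32 (8.71-fold lower). Mxd3, a MYC antagonist of S phase, was at 1.04 and -2.60 (12.4-fold lower), Maf at -3.26 and -0.86 (5.28-fold higher), and Mitf, which controls pigment and lysosome genes, at -0.78 and 1.07 (3.60-fold higher). The melanosome antigen Mlana was at -0.38 in the tissue and at least 42.5-fold higher, whereas the melanocyte genes Tyr and Pmel lay within 2-fold. Zeb1, a repressor of epithelial genes, was at 1.38 and 2.87 (2.81-fold higher), as were its chromosome 18 neighbours Svil (3.25-fold) and Arhgap12 (3.19-fold), although a second probe of Svil gave -0.04.

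**Figure D4:**
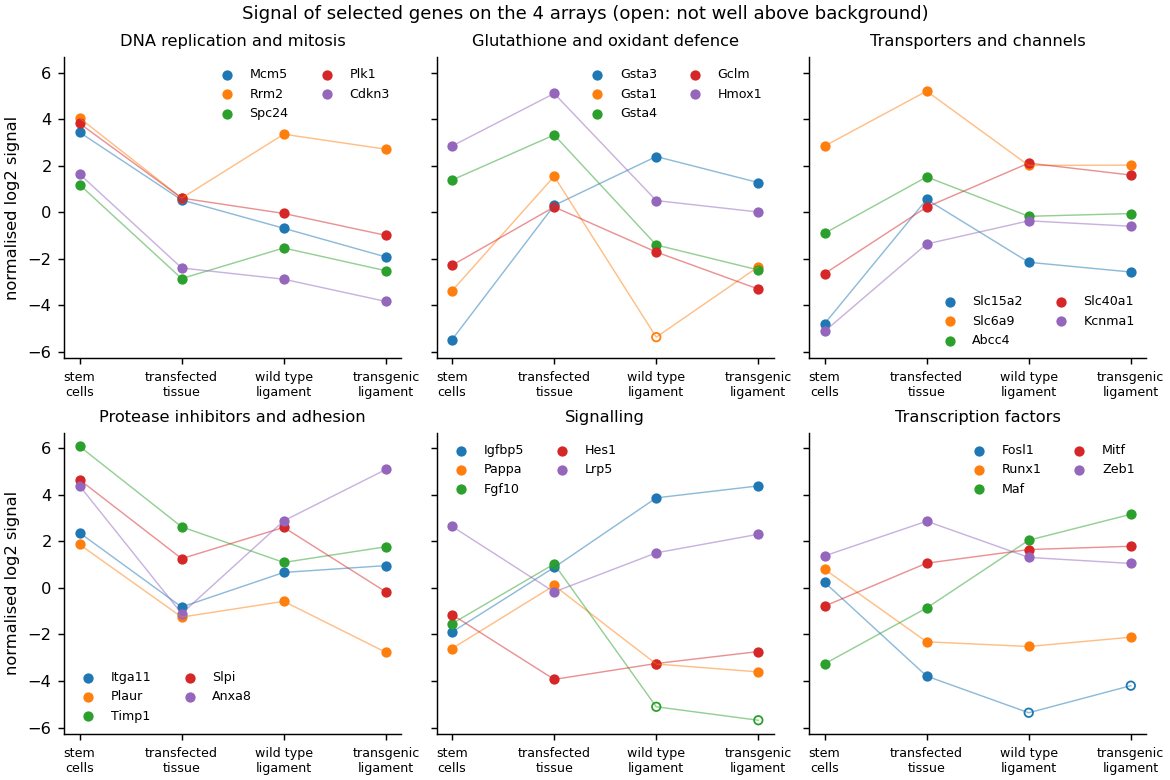
Normalised log2 signal of 30 named genes on the 4 arrays, grouped in 6 panels, with filled points well above background, open points not, and lines joining the values of 1 gene. In the protease inhibitor panel all 5 genes are lower in the tissue than in stem cells, and in the glutathione panel all 5 are higher. The genes were selected, so a shared direction within a panel is no result about its family. Of 35 serpins 12 were lower and 4 higher, and of 33 glutathione and thioredoxin enzymes 4 were higher and 2 lower. Fgf10 is above background on the cell and tissue arrays only.

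Energy metabolism differed by enzyme. Of 25 glycolysis genes 8 were lower and 3 higher (median -0.64, or -0.15 after quantile normalization). Pgk1 was at 7.56 and 5.09 (5.53-fold lower), Pfkl, the liver form of phosphofructokinase, at 2.97 and 0.71 (4.79-fold lower) and Tpi1 at 6.47 and 4.61 (3.62-fold lower). Ldhb, the lactate dehydrogenase subunit of oxidative tissues, was higher, at 2.35 and 3.85 (2.83-fold), and Ldha was at 6.60 and 5.66, within 2-fold by this probe but with a difference of -2.96 by another. Pdk1, which shuts pyruvate out of mitochondria, was at 1.21 and -1.45 (6.32-fold lower), and Pcx, which carboxylates it, at 1.41 and 3.62 (4.64-fold higher). The oxidative phosphorylation list had 2 of 84 genes higher and 0 lower, and its median of -0.37 changed sign under quantile normalization and in the deposited values.

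The 2 higher members were muscle and fat forms. Cox6a2 was at -1.58 in stem cells, 2.65 in the tissue and 9.18 in wild type ligament (18.8-fold higher in the tissue than in stem cells), and Cox8b was at -1.77 in the tissue, 9.32 in wild type ligament and at least 16.3-fold higher. Other skeletal muscle genes went both ways. Of 7 compared skeletal muscle markers 2 were lower and 0 higher. All 7 were well above background in stem cells and 2 in the tissue, so the 5 bounds could not come out as higher. Ckm, muscle creatine kinase, was not well above background in the tissue, and Acta1, skeletal actin, was at 0.69 in stem cells and -0.82 in the tissue. The muscle gene Myom2, by contrast, was at -1.32 in the tissue, 7.99 in wild type ligament and at least 22.2-fold higher than in stem cells. Tnnt1, given above, was higher too. In bulk samples fewer cells of a type and less RNA per cell cannot be told apart. Of 22 lipid storage genes 12 were higher and 1 lower (median 1.17), among them Gpd1, which makes glycerol phosphate, at -4.07 and -0.44 (12.4-fold higher), Plin4, a droplet coat protein, at 0.93 and 4.16 (9.40-fold higher), and Pnpla2, the first lipase of stored fat, at -0.15 and 1.82. All 22 were well above background in the tissue and 14 in stem cells, so the 8 bounds could not come out as lower. Among the genes measured on both arrays the median was 0.76. Cebpa and Pparg, the factors that drive fat cell formation, had differences of 0.02 and 0.42, and the share of such cells was not measured.

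Adjacent compared genes formed 120 runs of at least 3 past 2-fold in the same direction, 54 of them higher and 66 lower. Most genes past 2-fold lay outside such runs. With 11.1% of all genes higher and 13.1% lower, some runs arise without any link between neighbours, and their number was not estimated. Several of the longer runs were gene families described above, and others held unlike or unnamed genes. The serpins gave lower runs on chromosome 12, in which Serpina3g was at 1.74 and -2.94 (25.7-fold lower) and Serpina3n at -1.64 and -5.13 (11.3-fold lower). Probes of Serpina1a and Serpina1c there share 50 of 60 bases and count as 1 signal. A run on chromosome 1 held Csrp1 (-1.61), Phlda3 (-1.04), the troponin genes Tnni1 (-2.14) and Tnnt2 (-3.33), and Pkp1, at least 10.2-fold lower. Phlda3 fell under 2-fold after normexp correction, quantile normalization and centring on probes detected on both arrays, and in the deposited values. On chromosome 9 a run of unlike genes was higher, from Tinag, a basement membrane protein of kidney tubules (0.17 in the tissue, 18.0-fold higher), through Mlip (1.39) and Lrrc1 (1.05) to Gclc. Lrrc1 kept its 2-fold difference under 6 of 9 alternatives.

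A further run of 4 predicted genes at the start of chromosome 9 was higher by 3.91 to 4.63 and led to a search, made after these values were seen, for all probes with at least 40 of 60 bases identical to one of theirs. It found 6 probes, 5 on chromosome 9 and 1 on chromosome 2, in mm9 positions that the files place in predicted Ensembl transcripts. Their letters are those of the mouse major satellite, the tandem repeat of the heterochromatin beside centromeres; this naming is background knowledge, and no repeat annotation was used here. They are printed to show how closely they match, with capitals for the longest run of letters that a probe shares with another of the 6, between 27 and 36 bases.
Probe at chr2:98507014-98507072: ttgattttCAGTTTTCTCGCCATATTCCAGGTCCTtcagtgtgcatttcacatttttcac
Probe at chr9:3003722-3003781: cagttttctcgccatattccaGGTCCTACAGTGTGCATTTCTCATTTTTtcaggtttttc
Probe at chr9:3004200-3004259: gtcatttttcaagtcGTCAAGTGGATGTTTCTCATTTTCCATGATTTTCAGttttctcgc
Probe at chr9:3024224-3024283: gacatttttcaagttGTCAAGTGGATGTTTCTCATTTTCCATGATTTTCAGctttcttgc
Probe at chr9:3030720-3030779: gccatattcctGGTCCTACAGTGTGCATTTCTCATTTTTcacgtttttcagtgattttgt
Probe at chr9:3038257-3038316: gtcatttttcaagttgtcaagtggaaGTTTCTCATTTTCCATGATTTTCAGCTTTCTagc

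On the normalised scale all 6 repeat probes were higher in the tissue than in stem cells, and higher again in both ligaments. The 75th percentile subtracted was 286 in wild type and 303 in transgenic ligament, against 2260 in the tissue. The step from tissue to ligament therefore depends on this scaling. The probe on chromosome 2 was at -3.49 in stem cells, 0.53 in the tissue, 3.08 in wild type and 3.94 in transgenic ligament, and 16.2-fold higher in the tissue than in stem cells. The probe starting at 3004200 was at -4.34, 0.12, 3.05 and 3.91 in the same order, a difference of 4.46 between tissue and stem cells. The probe starting at 3038257 was at -1.17 in the tissue, at least 24.7-fold higher, its stem cell spot being not well above background. The remaining 3 were higher by 3.91, 3.93 and 4.08. Because of their likeness the 6 probes count as 1 signal, and its source was not tested.

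**Figure D5:**
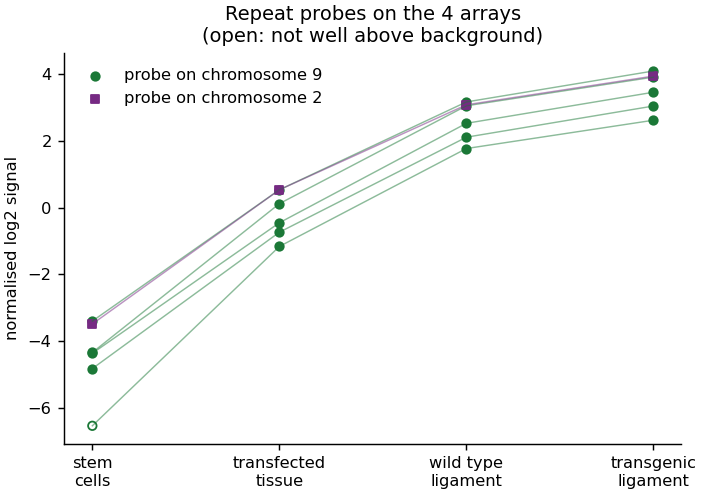
Normalised log2 signal of the 6 repeat probes on the 4 arrays, with circles for the 5 probes on chromosome 9, squares for the probe on chromosome 2, an open point where the signal was not well above background, and lines joining the values of 1 probe. All 6 probes go up from stem cells to tissue and again to both ligaments, in parallel.

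In 16 of 3829 genes with several measured probes, one probe was at least 2-fold higher and another at least 2-fold lower. Tenm4, a teneurin of cell surfaces in brain and mesenchyme, spread the most. Its probe at chr7:103358859-103358918 (mm9) was at 4.14 and 2.04, a difference of -2.10, and is the one that stands for the gene. Probes at chr7:104057003-104057062 and chr7:104059544-104059603 were at -0.36 and 3.01 and at -1.16 and 2.45, higher by 3.37 and 3.61. The first probe lies far from the others along the gene, and the arrays do not show which transcripts each one reads.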

How the data were processed

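RNA of 4 mouse samples was labelled with a single dye (Cy3, Quick Amp kit, per the labels' protocols) and hybridised by the authors to 1 Agilent whole mouse genome array each, on 1 slide. The deposited scanner files hold spot intensity on a linear scale, background-subtracted and detrended but not normalised between arrays, made by Feature Extraction 10.7.1.1 per the file headers. The submitters' processing notes name version 9.5.1.1, and the difference was not settled. Outlier spots (155 to 281 of 43020 non-control spots per array) were left out, and 0 spots were saturated. From the log2 signal the 75th percentile of the array was subtracted, repeated spots were averaged, and where a gene had several probes the one brightest on average across all 4 arrays stood for it. Of 39429 probes, 26854 were named through RefSeq accessions and the rest by the files' names, which gave 30159 genes. Positions of probes are mm9, those of promoters GRCm38.p6. A gene counts as higher or lower from 2-fold, and a bound counts only if it is itself 2-fold.

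Genes were named by rule: the 15 highest and 15 lowest measured differences, the 10 largest bounds each way, members of 132 gene lists, genes of neighbour runs and genes with opposed probes. The comparison, the lists and the rule were chosen with earlier results of these data known. The repeat probes were searched for after their values had been seen. Alternatives were normexp correction with offset 50 (limma 3.58.1, R 4.3.3), quantile normalization, other centrings, the authors' deposited value table (also linear intensity), other filters, other probe rules and other fold limits. On simulated data 200 of 200 changed probes were called in the right direction and 0 unchanged ones. The simulation had less noise than the stem cell spots showed, and only brighter probes were changed, by well over 2-fold. It checks the calculation and cannot show how well small changes or dim genes are called. With 1 array per sample no test between groups was made, and the number of arrays limits the precision. Some genes that the rule names are not reported here.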

Additional observations from a re-analysis of the deposited data

How the results depend on the processing

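Counts of genes moved by over 1.5 times under few alternatives. Genes higher in the tissue numbered 1080 after normexp correction, 2963 with no filter on dim genes and 482 from 4-fold, against 1973. Genes lower numbered 3492 with no filter and 670 from 4-fold, against 2318. Quantile normalization gave 2105 higher and 2057 lower, and the deposited values 2030 and 1993. Neighbour runs numbered 64 after normexp correction and 72 among genes measured on both arrays, against 120, and genes with opposed probes 150 from 1.5-fold, against 16. Of 194 named genes past 2-fold, 179 kept their side of 2-fold under every alternative that gave a value. With the mean of all probes, folds were smaller by over 1.5 times for 16 of 174 measured named genes, among them Evx2 (-2.44), Tk1 and Fanca, and the difference changed sign for Tenm4 (1.34, against -2.10) and Lrrc1 (-0.0021, against 1.05). Normexp correction took Gja1, Ifit1bl1, Ifit2, Lrrc1, Mlip, Phlda3 and 3 beta protocadherins under 2-fold. The medians of 39 of 132 gene lists changed sign under a scaling. Signals near background limit the bounds, which depend on where background is set; the causes of these shifts were not tested. No paired analysis was possible because each group holds 1 array.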

Other observations

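Eicosanoid enzymes held some of the wider single differences, although 3 of 14 compared genes were higher, 4 lower, and the median of -0.05 changed sign under other scalings. Ptgds, the lipocalin-type prostaglandin D synthase, was at -4.56 in stem cells and -0.86 in the tissue, higher by 3.69. Alox5ap, which presents arachidonic acid to lipoxygenase, was at -1.43 and -4.61, a difference of -3.18, and Ptgs2, or COX-2, differed by 0.08. Among 20 hormone and vasoactive receptor genes, 5 were higher and 3 lower. Prlr, the prolactin receptor, was at -1.45 and 0.63 (higher by 2.09) and Npr3, which clears natriuretic peptides, at 1.02 and 2.84 (higher by 1.82). The parathyroid hormone receptor Pth1r was at -2.35 and -4.54, a difference of -2.20.

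Of 17 glucocorticoid target genes, 5 were lower and 1 higher, with a median of 0.04. Fkbp5, a chaperone of the glucocorticoid receptor and a target of it, was at -0.38 and -2.76, a difference of -2.38, whereas Tsc22d3, another target, differed by 0.64. In the clock list Nr1d2, the repressor REV-ERB beta, was at -2.53 and -0.27, higher by 2.26, but by 1.00 with its other probe, and Nr1d1 differed by -0.01. Markers of bone cells were mixed: Phex, the endopeptidase of osteocytes, was at -3.82 and -0.57 (higher by 3.25), Dmp1, a matrix protein of osteocytes, was at -2.79 in the tissue, with a stem cell spot not well above background, and Runx2, the master factor of osteoblasts, differed by 0.32. None of the 20 tRNA synthetase genes lay 2-fold away.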
